A study of Mus musculus with 2 samples.

Results

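Trp53, which encodes the transcription factor p53, and 9 genes that p53 is known to switch on were followed in fibro-adipogenic progenitors (FAPs) of the mouse, muscle-resident mesenchymal cells with the capacity to form adipocytes. The 10 genes were Trp53, Cdkn1a, Mdm2, Ccng1, Trp53inp1, Bax, Bbc3, Sesn1, Phlda3 and Gdf15. They were picked by gene name, with no measured value in the rule, though earlier results of these data were known at the time. Each had 1 entry among the 44291 genes listed. Primary wild-type FAPs, sorted from mouse hind limb muscle, received platelet-rich plasma (PRP) or vehicle. Both groups were put into adipogenic induction medium, in which insulin (10 μg/ml), dexamethasone (0.25 μM) and IBMX (0.5 mM) are added to DMEM containing 20% FBS. RNA-seq was performed on 1 PRP library and 1 control library, so no difference has a replicate check. The labels name the treatment PRP, while the study's text describes FAPs given exosomes isolated from PRP of young human donors. The study asked how this treatment acts on adipogenesis and on the viability of FAPs, and p53 targets cover growth arrest and cell death.

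In resting cells p53 protein is kept low because MDM2, itself made from a p53 target gene, marks it for degradation. DNA damage, ribosomal stress and other signals free p53, which then binds DNA as a tetramer and raises genes for arrest (Cdkn1a, Ccng1), death (Bax, Bbc3, Trp53inp1, Phlda3), metabolic control (Sesn1) and secreted signals (Gdf15). Because p53 is controlled mostly at the protein level, the level of Trp53 mRNA is not a measure of its activity.

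The library totals recovered from the FPKM were 40120843 reads for PRP and 34139741 for control, and mitochondrial genes took 2.06% and 3.70% of the summed FPKM. All 10 genes gave whole read numbers in both libraries. FPKM are fragments per kilobase of exon, scaled to library size. Each ratio of FPKM below has a 95% Clopper-Pearson interval from the fragments of the gene. It covers counting error only and compares these 2 libraries, not the treatments. The FAP markers Pdgfra (19.8 FPKM in PRP, 28.0 in control) and Ly6a (59.9 and 66.4) were present, and all 10 FAP markers checked were lower in PRP, with sums of 560.0 and 870.7 FPKM. The 7 adipocyte markers summed to 51.4 and 44.0 FPKM, mostly from Fabp4 (40.7 and 33.6, ratio 1.21, 1.15 to 1.27). Of the 4 with a mean of at least 1 FPKM, Fabp4, Adipoq (5.49 and 5.22) and Cfd (2.92 and 2.22) were higher in PRP. Plin1 was lower (1.73 and 2.10, ratio 0.823, 0.661 to 1.03). The interval excluded 1 for Fabp4 only. Of the markers of other cells, 7 platelet and haemoglobin genes summed to 1.68 and 1.76 FPKM, 7 macrophage genes to 6.30 and 3.56, and 6 endothelial genes to 9.59 and 5.46. The 7 myogenic genes found summed to 21.8 and 18.4 FPKM. The defining markers Ppbp, Gp9, Pax7 and Myog were listed at 0 in both libraries. Ptprc stood at 0.011 and 0.019 FPKM and Pecam1 at 0.188 and 0.047. Other members passed a mean of 1 FPKM. Macrophage Cd68 had 4.56 and 2.31 FPKM (ratio 1.98, 1.39 to 2.79). Endothelial Kdr had 4.23 and 1.499 (ratio 2.82, 2.43 to 3.28) and Tek 4.73 and 3.56 (ratio 1.33, 1.14 to 1.55). Myogenic Acta1 had 15.1 and 11.1 (ratio 1.36, 1.17 to 1.57). Ckm (3.56 and 3.72) and Des (2.91 and 3.39) were lower, with intervals that included 1. The part of other cells in the differences below was not tested. In bulk RNA, fewer cells that express a gene and less RNA of it per cell cannot be told apart.

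The p53 binding site is made of 2 decamers, each called a p53 half-site, and its consensus reads alike on both strands. RefSeq promoter windows on GRCm38.p6, from 250 bases before to 50 after an annotated start, were searched for this consensus. Of the 10 genes, 9 had 14 such windows, and Trp53inp1 had none. A decamer without mismatch lay in a window of 6 of these 9 genes, against 9.55% of all 27025 genes with windows (6 of 14 windows against 8.36% of 32851). Both decamers side by side, 20 bases with at most 1 mismatch, lay in front of Cdkn1a and Ccng1, and in 0.107% of all genes. A gene with several starts has more windows in which a match can fall. The best stretch of each gene follows, with the matched bases in capitals, because p53 is known to find its targets through sites of this kind.

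Cdkn1a, plus strand, chr17:29090913-29090962, both decamers: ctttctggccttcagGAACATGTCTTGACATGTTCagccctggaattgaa

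Ccng1, minus strand, chr11:40755447-40755496, both decamers: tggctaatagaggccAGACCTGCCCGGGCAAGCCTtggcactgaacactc

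Mdm2, minus strand, chr10:117710920-117710959, 1 decamer: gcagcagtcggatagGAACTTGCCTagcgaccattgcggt

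Trp53, plus strand, chr11:69580269-69580308, 1 decamer: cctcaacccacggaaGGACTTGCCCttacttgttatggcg

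Bax, minus strand, chr7:45467075-45467114, 1 decamer: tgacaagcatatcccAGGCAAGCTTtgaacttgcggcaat

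Sesn1, plus strand, chr10:41887251-41887290, 1 decamer: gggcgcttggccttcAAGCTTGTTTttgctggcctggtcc

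The Cdkn1a site began 51 bases before the upstream start of the gene and 2841 bases before its downstream start, and another decamer began 73 bases before the upstream start. The Ccng1 site began 195 bases before its start. No decamer without mismatch lay in the windows of Bbc3, Phlda3 or Gdf15. Sites outside these windows, such as the p53-responsive promoter known in the first intron of Mdm2, were not analysed here. The map of promoter matches shows where each of them falls.

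**Figure D1:**
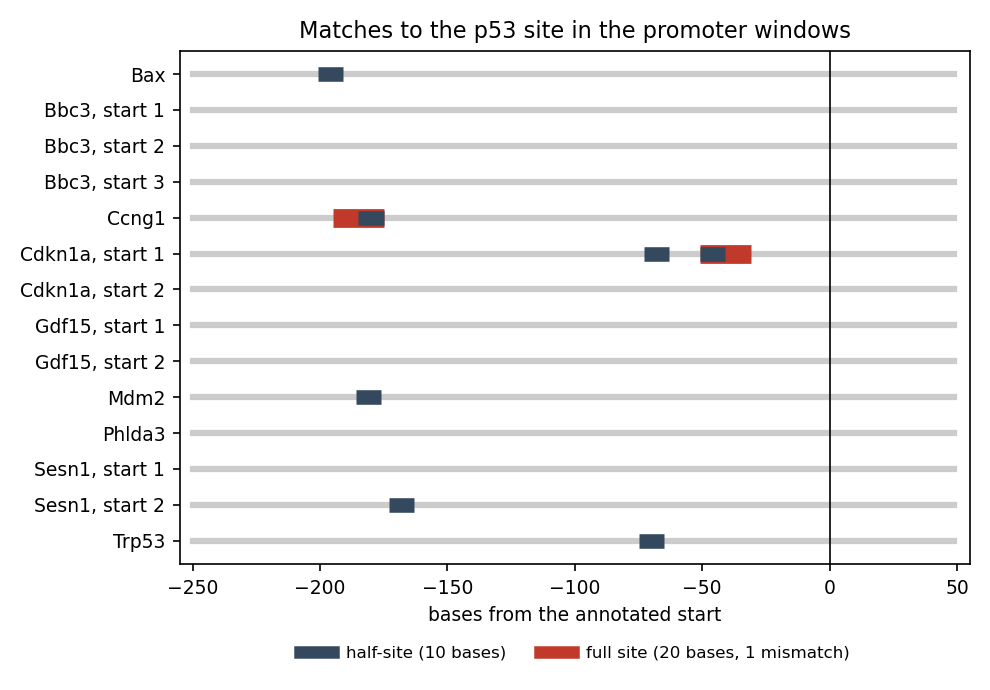
Matches to the p53 site in the 14 promoter windows of 9 genes, by distance in bases from the annotated start (0). Dark blocks are decamers (half-sites) without mismatch and red blocks are 20-base sites with 1 mismatch; starts of one gene are numbered by coordinate, and the 20-base sites lie 195 bases (Ccng1) and 51 bases (Cdkn1a) before a start.

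The 10 genes did not move as a block. In the PRP library Gdf15, Mdm2, Trp53inp1, Cdkn1a, Trp53 and Bbc3 were higher and Ccng1, Bax, Phlda3 and Sesn1 were lower. The interval of the ratio excluded 1 for 9 genes, 5 higher and 4 lower, and included it for Bbc3. No such share over all genes tested is given here. At this depth the intervals of all 10 FAP markers, with a median log2 fold change of -0.46, excluded 1 as well. In lists given below the interval included 1 for 17 of 50 other p53 targets and for 7 of 23 genes that control the p53 protein. All 10 genes followed here passed the minimum of a mean of 1 FPKM, as did 13401 genes in all. A gene was counted as changed when log2(PRP FPKM + 1) minus log2(control FPKM + 1) was at least 1.5-fold in size. By this measure Gdf15, Mdm2 and Trp53inp1 were higher, 3 of the 10 genes against 6.15% of all genes tested. None of the 10 was lower by this measure, against 4.57% of all genes tested. Gdf15 alone was at least 2-fold higher, as were 2.00% of all genes tested. The median log2 fold change was 0.12 over the 10 genes and 0.01 over all genes tested. It was 0.05 or 0.18 when any 1 gene was left out. Summed over the 10 genes, the level was 417.0 FPKM in PRP and 360.9 in control, a ratio of 1.16. Without Mdm2 the sums were 281.6 and 288.2 FPKM, a ratio of 0.977.

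**Figure D2:**
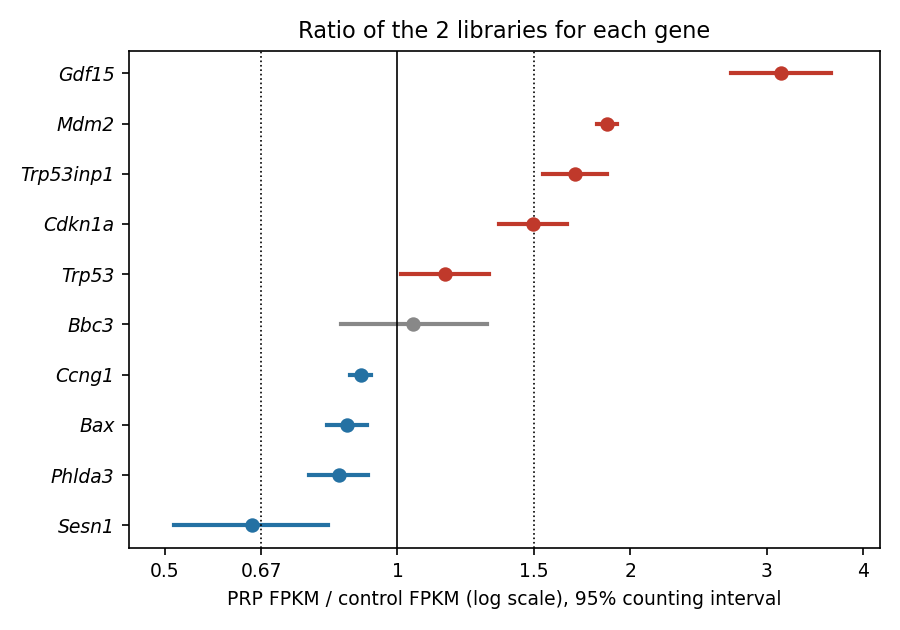
Ratio of PRP FPKM to control FPKM for the 10 genes on a log axis, with 95% counting intervals as bars (red above 1, blue below 1, grey across it). The solid line marks no difference and the dotted lines a 1.5-fold ratio in each direction; Gdf15 (3.13) and Mdm2 (1.86) lie farthest to the right and Sesn1 (0.649) farthest to the left.

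Trp53 and the genes that feed back on its protein were examined first. Trp53 (ENSMUSG00000059552, chromosome 11, 69580359 to 69591873, plus strand) had 6.61 FPKM in PRP and 5.73 FPKM in control, from 1072 and 791 reads. The ratio was 1.15 (1.01 to 1.31), and 28.7% of the genes tested had a larger log2 fold change than its 0.18. Trp53 was thus slightly higher in PRP, with an interval that ends close to no difference.

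Mdm2 encodes the ubiquitin ligase that marks p53 for degradation (ENSMUSG00000020184, chromosome 10, 117688875 to 117710758, minus strand). It had 135.5 FPKM in PRP and 72.7 FPKM in control, from 27626 and 12608 reads, the most of the 10 genes in PRP. The ratio was 1.86 (1.81 to 1.92), with a log2 fold change of 0.89, and 2.49% of the genes tested had a larger one. In control the Mdm2 level was above 94.4% of all genes tested, and in PRP above 97.02%. Its relative Mdm4, which binds p53 without marking it efficiently for degradation, had 3.03 and 2.98 FPKM (ratio 1.02, interval 0.920 to 1.12). Per length, Mdm2 stood 20.5 times (18.8 to 22.4) above Trp53 in PRP and 12.7 times (11.4 to 14.1) in control. Mdm2 was therefore higher in PRP while the levels of Trp53 and Mdm4 stayed near those in control. FPKM sums all transcripts of a gene, so transcripts from the first and the second Mdm2 promoter were not told apart.

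Ccng1 encodes cyclin G1, which acts with the phosphatase PP2A on MDM2 (ENSMUSG00000020326, chromosome 11, 40748552 to 40755311, minus strand). It had 117.6 FPKM in PRP and 131.2 FPKM in control, from 16571 and 15735 reads. The ratio was 0.896 (0.869 to 0.924), a small difference in the direction opposite to Mdm2 and larger than counting error. Its relative Ccng2, the gene of cyclin G2, had 7.52 and 6.71 FPKM (ratio 1.12, interval 1.01 to 1.24). Of the genes with a 20-base site in a promoter window, Ccng1 was lower in PRP and Cdkn1a (ratio 1.496) was higher. Mdm2, with 1 decamer in its window, was higher, but the promoter in its first intron was not searched. Whether these sites had a part in the levels was not tested.

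Among genes of growth arrest, Cdkn1a encodes the cyclin-dependent kinase inhibitor p21, the main mediator of p53-induced arrest (ENSMUSG00000023067, chromosome 17, 29090976 to 29100727, plus strand). It had 15.2 FPKM in PRP and 10.1 FPKM in control, from 2162 and 1230 reads. The ratio was 1.496 (1.35 to 1.65), just under 1.5, and the log2 fold change of 0.54 was also below the threshold of 0.58. Of the genes tested, 7.19% had a larger one. The other genes of the same inhibitor family were lower in PRP. Cdkn1b, the gene of p27, had 3.91 and 5.66 FPKM (ratio 0.691, interval 0.599 to 0.796), and Cdkn1c, the gene of p57, had 25.1 and 30.7 FPKM (ratio 0.816, 0.748 to 0.890). Cdkn1c shares 30.7% of its exon bases with Gm44732 on the opposite strand. Per length, Cdkn1a stood 3.88 times (3.44 to 4.38) above Cdkn1b in PRP and 1.79 times (1.58 to 2.03) in control. Cdkn1a shares 273 of its 3553 exon bases (7.68%) with AC167363.2 on the opposite strand. That entry had 9.65 and 6.10 FPKM, and the strand setting of the counting is not given in the sources used here.

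**Figure D3:**
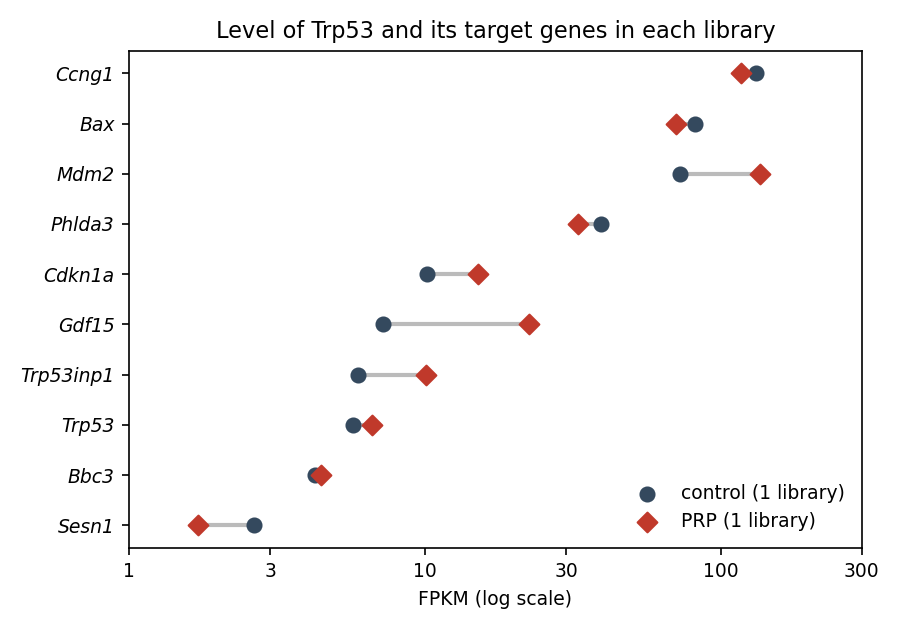
FPKM of the 10 genes in the control library (circles) and the PRP library (diamonds) on a log axis, ordered by the control level. Levels run from 1.72 FPKM (Sesn1, PRP) to 135.5 FPKM (Mdm2, PRP), and the longest lines are those of Gdf15 and Mdm2, which were higher in PRP.

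The genes of cell death were mixed. Bax encodes the effector that opens the outer mitochondrial membrane (ENSMUSG00000003873, chromosome 7, 45461697 to 45466898, minus strand). It had 70.4 FPKM in PRP and 81.7 FPKM in control, from 4452 and 4398 reads (ratio 0.861, 0.812 to 0.914). The other effector, Bak1, went the opposite way with 18.9 and 14.4 FPKM (ratio 1.31, 1.18 to 1.46). Bak1 shares 25.5% of its exon bases with Ggnbp1 on the opposite strand. Per length, Bax stood 4.30 times (4.02 to 4.59) above the anti-apoptotic gene Bcl2l1 in PRP and 5.70 times (5.30 to 6.13) in control. Bax was thus lower in PRP both by itself and set against Bcl2l1. A protein-coding entry on the same strand, Gm45808 (124.8 FPKM in PRP and 146.8 in control), shares 192 of the 1576 exon bases of Bax (12.2%). How reads in the shared part were assigned is not given in the sources used here.

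Bbc3 encodes PUMA, a BH3-only protein that neutralises anti-apoptotic relatives of BCL2 (ENSMUSG00000002083, chromosome 7, 16308393 to 16318205, plus strand). It had 4.45 FPKM in PRP and 4.25 FPKM in control, from 379 and 308 reads. The ratio was 1.05 (0.844 to 1.31), so a difference was not detectable at this depth. Pmaip1, the gene of the BH3-only protein NOXA and also a p53 target, had 30.1 and 21.6 FPKM (ratio 1.39, 1.29 to 1.51). Per length, Bbc3 stood at 0.148 (0.127 to 0.172) of Pmaip1 in PRP and at 0.196 (0.164 to 0.233) in control.

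Trp53inp1 encodes a nuclear stress protein that takes part in p53-dependent death and in autophagy (ENSMUSG00000028211, chromosome 4, 11156431 to 11174379, plus strand). It had 10.1 FPKM in PRP and 5.94 FPKM in control, from 2613 and 1312 reads. The ratio was 1.69 (1.54 to 1.86), with a log2 fold change of 0.67, and 4.48% of the genes tested had a larger one. Its relative Trp53inp2 had 4.58 and 9.10 FPKM (ratio 0.503, 0.449 to 0.564), the opposite direction. The order of the pair differed between the libraries, with Trp53inp1 at 2.20 times (1.98 to 2.44) the level of Trp53inp2 in PRP and at 0.652 (0.587 to 0.723) in control.

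Phlda3 encodes a small pleckstrin-homology protein that holds back the survival kinase AKT (ENSMUSG00000041801, chromosome 1, 135766119 to 135769136, plus strand). It had 33.0 FPKM in PRP and 39.3 FPKM in control, from 2064 and 2093 reads (ratio 0.839, 0.769 to 0.915). Its relative Phlda1 had 21.5 and 7.68 FPKM (ratio 2.80, 2.45 to 3.21), and shares 33.0% of its exon bases with a gene on the opposite strand. Phlda2 had 6 reads in each library, too few for a comparison. Phlda3 stood 5.12 times (4.49 to 5.86) above Phlda1 in control and 1.53 times (1.40 to 1.68) in PRP.

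Of the metabolic and secreted members, Sesn1 encodes sestrin 1, a stress protein that restrains mTORC1 (ENSMUSG00000038332, chromosome 10, 41809935 to 41908424, plus strand). It had 1.72 FPKM in PRP and 2.64 FPKM in control, from 274 and 359 reads, the fewest of the 10 genes in PRP. The ratio was 0.649 (0.515 to 0.813). At such low levels the pseudocount matters, and the log2 fold change of -0.42 stayed short of the 1.5-fold threshold although the plain ratio passed it. With a pseudocount of 0.1 the log2 fold change was -0.59. Sesn2 had 4.42 and 3.90 FPKM (ratio 1.13, 0.9496 to 1.35), and Sesn3 had 0.715 and 1.77 FPKM (ratio 0.403, 0.342 to 0.475). Of the 14 relatives of the 10 genes that passed the minimum, 9 were higher and 5 lower, while 50.9% of all genes tested were higher. Their median log2 fold change was 0.07. Phlda1 alone was at least 1.5-fold higher, 7.14% of these relatives and near the 6.15% of all genes tested. Trp53inp2 and Sesn3 were at least 1.5-fold lower, 2 of the 14 against 4.57% of all genes tested.

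Gdf15 encodes a secreted TGF-β family member that is made under many kinds of stress and is known to answer both p53 and the stress factors ATF4 and CHOP (ENSMUSG00000038508, chromosome 8, 70629393 to 70632456, minus strand). It had 22.6 FPKM in PRP and 7.21 FPKM in control, from 1676 and 456 reads. The ratio was 3.13 (2.70 to 3.64), with a log2 fold change of 1.52, and 0.627% of the genes tested had a larger one. It moved from a level above 58.7% of the genes tested in control to one above 82.9% in PRP. The targets of ATF4 and CHOP were higher alongside it, since all 15 entries tested were above their control level, against 50.9% of all genes tested, and 7 were at least 1.5-fold higher, against 6.15%. The intervals of 12 entries lay above 1, and those of Sesn2, Ddit4 and Psat1 spanned it, again with no share over all genes. They were led by Slc7a11 (7.98 and 0.766 FPKM), Ppp1r15a (180.8 and 52.3) and Atf3 (12.0 and 5.14). Of the 7 entries, 2 are overlapping entries of 1 gene, Ddit3, which encodes CHOP. The part of p53 and of these factors in the Gdf15 difference was not tested.

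Ranked by level, the order of the 10 genes differed between the libraries. In control it ran Ccng1, Bax, Mdm2, Phlda3, Cdkn1a, Gdf15, Trp53inp1, Trp53, Bbc3 and Sesn1. In PRP Mdm2 came first, before Ccng1, and Gdf15 came before Cdkn1a. Neighbours in this order differed beyond counting error in each case but 1. In control Trp53inp1 and Trp53 had a ratio of 1.04 (0.912 to 1.18). Mdm2 made up 20.1% of the summed FPKM of the 10 genes in control and 32.5% in PRP, while Ccng1 made up 36.4% and 28.2%.

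To set the 10 genes in the wider pathway, 58 other targets of p53 were listed by function, with earlier results of these data known. The minimum was passed by 51 of them. Of these, 43 were higher and 8 lower in PRP, with a median log2 fold change of 0.21 against 0.01 for all genes tested, of which 50.9% were higher. At least 1.5-fold higher were 8 (15.7%), against 6.15% of all genes tested, and none was lower by that measure. Of the 50 with an interval, 28 lay above 1, 5 below and 17 across it, with no share over all genes to set beside them. Thus most other targets were slightly higher in PRP, and few differed by much.

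Among 17 tested genes of arrest and repair, 3 were at least 1.5-fold higher (17.6%), against 6.15% of all genes tested. Gadd45a, which slows the cycle under stress, had 54.4 FPKM in PRP and 24.9 in control (ratio 2.18, 2.01 to 2.38). Plk2, a polo-like kinase, had 60.9 and 29.0 FPKM (ratio 2.10, 1.998 to 2.21). Xpc, which recognises damaged DNA in nucleotide excision repair, had 17.5 and 11.3 FPKM (ratio 1.55, 1.44 to 1.68). Among 14 tested genes of death and autophagy, 12 were higher, while 50.9% of all genes tested were higher. Ei24 alone passed the threshold, with 17.6 and 10.5 FPKM (ratio 1.68, 1.55 to 1.82). That is 7.14% of the list, near the 6.15% of all genes tested. Gadd45a shares 19.1% of its exon bases with a gene on the opposite strand.

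Among 20 tested genes of metabolism and signals, 4 were at least 1.5-fold higher (20%), against 6.15% of all genes tested. Epha2, an ephrin receptor gene, had 5.10 FPKM in PRP and 2.04 in control (ratio 2.495, 2.08 to 2.999). The cytokine gene Lif had 3.94 and 1.47 FPKM (ratio 2.67, 2.14 to 3.33), and the peptide transporter gene Tap1 had 3.16 and 1.62 FPKM (ratio 1.96, 1.61 to 2.38).

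**Figure D4:**
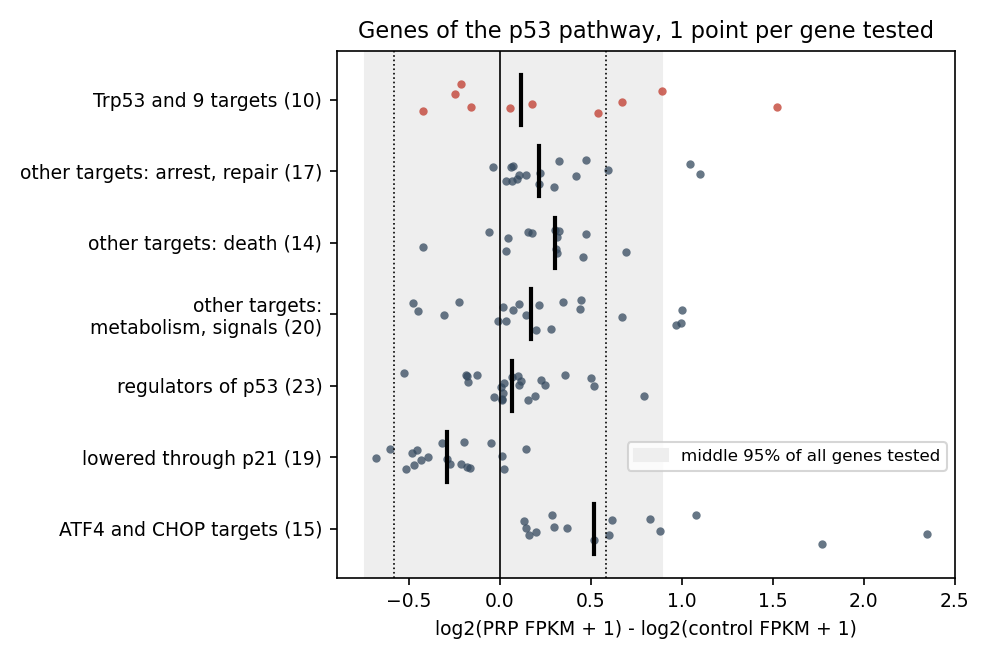
Log2 fold change, log2(PRP FPKM + 1) minus log2(control FPKM + 1), of each gene tested, for Trp53 and 9 targets (red) and 6 other lists (dark), with list medians as black bars. The grey band is the middle 95% of all 13401 genes tested (-0.74 to 0.89) and the dotted lines mark 1.5-fold; the 10 genes spread from -0.42 to 1.52, and the median of the genes lowered through p21 is -0.29.

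Genes that control the p53 protein were nearer to no difference. Of 23 tested, 17 were higher and 6 lower, with a median log2 fold change of 0.07, while 50.9% of all genes tested were higher. Sirt1, whose product deacetylates p53, was the only one at least 1.5-fold higher, with 3.68 FPKM in PRP and 1.71 in control (ratio 2.16, 1.78 to 2.60). That is 4.35% of the list, near the 6.15% of all genes tested. None was at least 1.5-fold lower, against 4.57% of all genes tested. Cdkn2a, the source of the MDM2 inhibitor ARF and of p16, had 14.0 and 20.6 FPKM (ratio 0.679, 0.585 to 0.785). The p53 relatives Trp63 and Trp73 did not exceed 0.1 FPKM in either library.

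Cell cycle genes that p53 is known to lower through p21 were mostly lower in PRP, beside the higher Cdkn1a. Of 19 tested, 16 were lower and 3 higher, with a median log2 fold change of -0.29, while 49.1% of all genes tested were lower. At least 1.5-fold lower were 2 of the 19, against 4.57% of all genes tested, Ccnb2 (6.63 and 11.2 FPKM, ratio 0.591) and Top2a (18.6 and 28.7, ratio 0.645), followed by Aurkb (1.68 and 2.84, ratio 0.592). The study reported more proliferation of FAPs given exosomes of young donors, by BrdU uptake in vitro and in injured muscle and by Ki67 in injured muscle. By RT-PCR it also reported higher cell cycle markers in these FAPs in vitro. The settings of those experiments may differ from the one here. Whether p21 had a part in the levels given here was not tested.

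Because the study names the microRNAs let-7f and miR-16 as cargo of the exosomes, the longest GENCODE 3′ UTR of each gene was searched for matches to their seeds (bases 2 to 8). The mature mouse sequences from RefSeq are shown first, with the seed in capitals, and then each match in the 10 genes, with the bases that pair with the seed in capitals.

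mmu-let-7f-5p: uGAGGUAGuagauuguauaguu

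mmu-miR-16-5p: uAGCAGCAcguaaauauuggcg

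Cdkn1a, plus strand, chr17:29100081-29100103: tggtgatcTGCTGCTcttttccc

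Ccng1, minus strand, chr11:40749158-40749180: gtcagaacTGCTGCTtcaatcta

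Sesn1, plus strand, chr10:41907744-41907766: gcgctcggTGCTGCTgtgcgggg

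Sesn1, plus strand, chr10:41907784-41907806: tggctgagTGCTGCTaccacctg

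Phlda3, plus strand, chr1:135768936-135768958: gggtctccTGCTGCTtaggtcct

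None of the 10 genes held the let-7 match CTACCTC, which lay in 9.85% of 10287 genes tested with a 3′ UTR. The miR-16 match TGCTGCT lay in Cdkn1a, Ccng1, Sesn1 and Phlda3, 4 of the 10 genes against 24.6% of all. Of these 4, Ccng1 (ratio 0.896), Sesn1 (0.649, with 2 matches) and Phlda3 (0.839) were lower in PRP and Cdkn1a (1.496) was higher. Of all genes tested, 49.1% were lower, and the share among all genes with the match is not given here. The part of miR-16 in these levels was not tested. Bax (0.861) was lower with no match. A longer 3′ UTR has more room for a match, and those of the 10 genes ran from 150 bases (Gdf15) to 4420 bases (Trp53inp1).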

How the data were processed

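Per the labels, the authors trimmed reads with fastp 0.23.4, aligned them to mm10 with STAR 2.5.3a and used featureCounts for counting. What they deposited is a table of FPKM for each library. The annotation release, the strand setting and the step from counts to FPKM are not given in the sources used here. Libraries were made with a stranded mRNA kit.

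Genes were matched by identifier to GENCODE M21 (GRCm38). FPKM times exon length gives reads in steps of 1 over the library total, which gave the totals of 40120843 and 34139741 reads. Whole reads (within 0.001) came out for 93.7% of the genes above 0 with a length in each library. Even read numbers prevailed (79.3% and 80.3% of genes with up to 8 reads), so 2 reads were taken as 1 fragment, a lone mate as 1. Intervals are Clopper-Pearson 95% intervals of the PRP share of fragments, turned into ratios. PCR duplicates are not accounted for. No test was run, because there is 1 library per group. Log2 fold changes used a pseudocount of 1, which understates changes of low genes, and a minimum mean of 1 FPKM. Genes named are the 10 genes, their relatives, listed targets and regulators at least 1.5-fold changed (at most 5 in each direction), and the 3 largest changes in the p21 and ATF4 lists. Mdm4, Pmaip1, Cdkn2a, Trp63, Trp73 and the markers are named for their roles. The genes and lists were chosen with earlier results of these data known, and the seed search and the ratios between genes within a library were added after values were seen. The values of 1 listed target are not reported here. The planned search around gene starts in the genome was limited to promoter windows. Alternatives were pseudocounts of 0.1 and 5, no minimum or a mean of 5 FPKM, rescaling to a common sum of 1000000 with all genes or without mitochondrial genes and the 50 most abundant genes, centring on the median gene, and a 2-fold threshold. Python 3.11.15, NumPy 2.4.6, pandas 2.3.3, SciPy 1.17.1 and matplotlib 3.10.9 were used, and the procedure was tested on simulated data.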

Additional observations from a re-analysis of the deposited data

How the results depend on the processing

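No paired analysis was possible because PRP and control had 1 library each, and for the same reason no library could be left out. All 10 genes kept their direction under every scaling and pseudocount tried. The log2 fold change ranged from 1.17 to 1.63 for Gdf15, from 0.86 to 0.90 for Mdm2, from 0.46 to 0.75 for Trp53inp1, from 0.41 to 0.58 for Cdkn1a and from -0.59 to -0.19 for Sesn1. The number at least 1.5-fold higher was 3 under the other settings, 2 with a pseudocount of 5 and 1 at the 2-fold threshold. Both rescalings, to a sum of 1000000, also cut the pseudocount to between 0.250 and 0.343 deposited FPKM, so they changed 2 choices. They were therefore repeated, after the data were seen, at the mean of the deposited sums, which keeps the pseudocount's weight. With a pseudocount of 0.1, and when rescaled to 1000000 without mitochondrial and top genes, 1 gene, Sesn1, was at least 1.5-fold lower, and 0 with the weight kept. The median of the 10 genes lay between 0.07 and 0.13 except at a mean of 5 FPKM, where 8 genes were left and it was 0.36. The other targets at least 1.5-fold higher numbered 3 with a pseudocount of 5, 5 at a mean of 5 FPKM and 3 at the 2-fold threshold, against 8. With a pseudocount of 0.1, and under both rescalings to 1000000, 1 was lower, against 0 as reported and 0 with the weight kept. Regulators at least 1.5-fold higher numbered 2 with a pseudocount of 0.1 and 0 with a pseudocount of 5, at a mean of 5 FPKM and at the 2-fold threshold. Of all genes, 317 were higher and 205 lower with a pseudocount of 5, 410 and 340 at a mean of 5 FPKM, and 268 and 111 at the 2-fold threshold, against 824 and 612. With a pseudocount of 0.1, 968 genes were lower, and 993 when rescaled to 1000000 without mitochondrial and top genes, but 694 with the weight kept. Among genes counted as changed, 57.4% were higher, 70.7% at the 2-fold threshold, 53.7% at a common sum of 1000000 and 51.5% without mitochondrial and top genes. The median of all genes moved by less than 0.1 under each setting, and the cause of the other differences between settings was not tested.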
